A study of Drosophila melanogaster with 9 samples.

Results

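The genes described here encode the proteins of the mitochondrial ribosome. They were chosen by name, as every gene whose symbol begins with *mRpL* (large subunit) or *mRpS* (small subunit) on an array probe set that names 1 gene, and where a gene had several, the brightest on average over all arrays was read. The rule found 69 genes, 44 of the large and 25 of the small subunit, among 17105 genes or unnamed probe sets on the array, and all 69 lay among the brighter 8552 that were tested. By the number in the symbol alone, 40 of the 69 were classed as having a counterpart in the bacterial ribosome and 29 as mitochondrial alone. Counterparts were not checked gene by gene, so some genes can be misplaced in this split.

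Mitochondrial ribosomes make the few proteins that mitochondrial DNA encodes, which are core subunits of the respiratory chain and of ATP synthase. In *Drosophila*, as in other animals, the RNA of these ribosomes comes from mitochondrial DNA, whereas every ribosomal protein is encoded in the nucleus, made in the cytoplasm and imported. The letter L or S of a symbol names the subunit to which the protein was first assigned, and large and small subunit proteins with the same number are unrelated. Genes are counted here by that letter. The structural roles named here are known from bacterial, yeast and mammalian ribosomes, not from fly structures.

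RNA came from the complete CNS of wandering larvae of the third instar, dissected in pools of 10 to 15 and grown at 25 °C. All 3 groups carried *repoGal4*, a driver that switches on UAS transgenes in glia, and each group had 3 arrays. Control larvae were *repoGal4*/+ and carried no UAS transgene. HtlACT larvae (*repoGal4*>*UAS-Htl[ACT]*) expressed an activated form of Heartless, an FGF receptor, and InR larvae (*repoGal4*>*UAS-InR*) expressed the insulin receptor. The study used both genotypes because they increase the number of glia. The transgenes acted in glia, whereas the RNA was that of all cells of the CNS, so that fewer cells of a type and less RNA per cell cannot be told apart. Nothing in the labels gives the age or sex of the larvae, or says whether the triplicates came from separate crosses, so p-values measure the spread between these samples.

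The values are MAS5 signals, the intensity summary of Affymetrix arrays, and changes are given as log2 fold changes with a standard error (SE) from limma over all 9 arrays. Signals of different probe sets cannot be ranked against each other, because each probe set has its own brightness. The labels were checked on the driver and transgene genes. *htl* had signals of 1677 to 2345 in HtlACT and 271.2 to 342.2 in control arrays. *InR* had 786.6 to 976 in InR and 852 to 1192 in control arrays, so this probe set did not separate InR tissue from control (adjusted p = 0.384). *repo*, which marks glia, lay between 3055 and 3545 in control, 8349 and 8386 in HtlACT and 5461 and 5914 in InR arrays. In HtlACT tissue 8 of 9 glial markers were increased, 8 of 8 neuronal markers were decreased and 8 of 9 markers of neuroblasts and dividing cells were decreased. In InR tissue the corresponding counts were 5, 3 and 7.

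Markers of fat body, a tissue outside the CNS, stood apart in 3 arrays. Their summed signal was 6944 in control replicate 2, 18740 in InR replicate 2 and 9876 in InR replicate 3, and lay between 585.3 and 1011 in the other 6 arrays. Counts of mitochondrial ribosomal protein genes are therefore also given without these 3 arrays, which leaves 2 control, 3 HtlACT and 1 InR array and assumes that the lone InR array varies like the others. That setting was chosen after the data were seen.

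No mitochondrial ribosomal protein gene changed by 1.5-fold at an adjusted p of 0.05 in any of the 3 comparisons by limma, and 0 did by SAM, a permutation method. No log2 fold change reached 1.5-fold at any p. Among all 8552 tested, this rule called 13.0% higher and 19.2% lower in HtlACT against control, 9.24% higher and 6.58% lower in InR against control, and 5.43% higher and 6.45% lower in HtlACT against InR. The members moved little and within a narrow range. In HtlACT against control their log2 fold changes ran from -0.29 to 0.57 with a median of 0.10, while the median over all tested was -0.15. In InR against control they ran from -0.35 to 0.33 with a median of -0.11, beside -0.09 for all. In HtlACT against InR they ran from -0.13 to 0.56 with a median of 0.20, beside -0.08 for all.

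The interquartile range of the members was 0.27 on the log2 scale in HtlACT against control, 0.21 in InR against control and 0.17 in HtlACT against InR. Over all tested it was 0.76, 0.50 and 0.43. It was narrower still for 35 cytoplasmic ribosomal protein genes (0.09, 0.06 and 0.05). For 56 nuclear genes of the respiratory chain and ATP synthase it was 0.21, 0.16 and 0.15. A narrow range was thus not particular to the members. For 62 members (89.9%) the 95% confidence interval of the HtlACT change lay inside 1.5-fold in both directions, as it did for 37% of all tested. The same held for 68 members (98.6%) in InR against control and 60 members (87%) in HtlACT against InR, beside 50.3% and 55.5% of all. The members and all tested were not matched for brightness. All tested reached down to a mean signal of 35.2, whereas the lowest mean control signal of a member was 577.6. The largest SE was 2.59 for all tested and 0.16 for members. The median SE of a change was 0.10 for members and 0.12 for all tested. Changes well under 1.5-fold could therefore pass a test without a fold limit, and a gene is called increased or decreased here where its adjusted p alone was at most 0.05. Without HtlACT replicate 2, 4 members passed 1.5-fold in HtlACT against control (*mRpL43*, *mRpS14*, *mRpS26* and *mRpS34*) and 2 in HtlACT against InR (*mRpL43* and *mRpL49*). *mRpL43* also passed 1.5-fold against control without control replicate 2 or 3, and against InR without InR replicate 3.

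**Figure D1:**
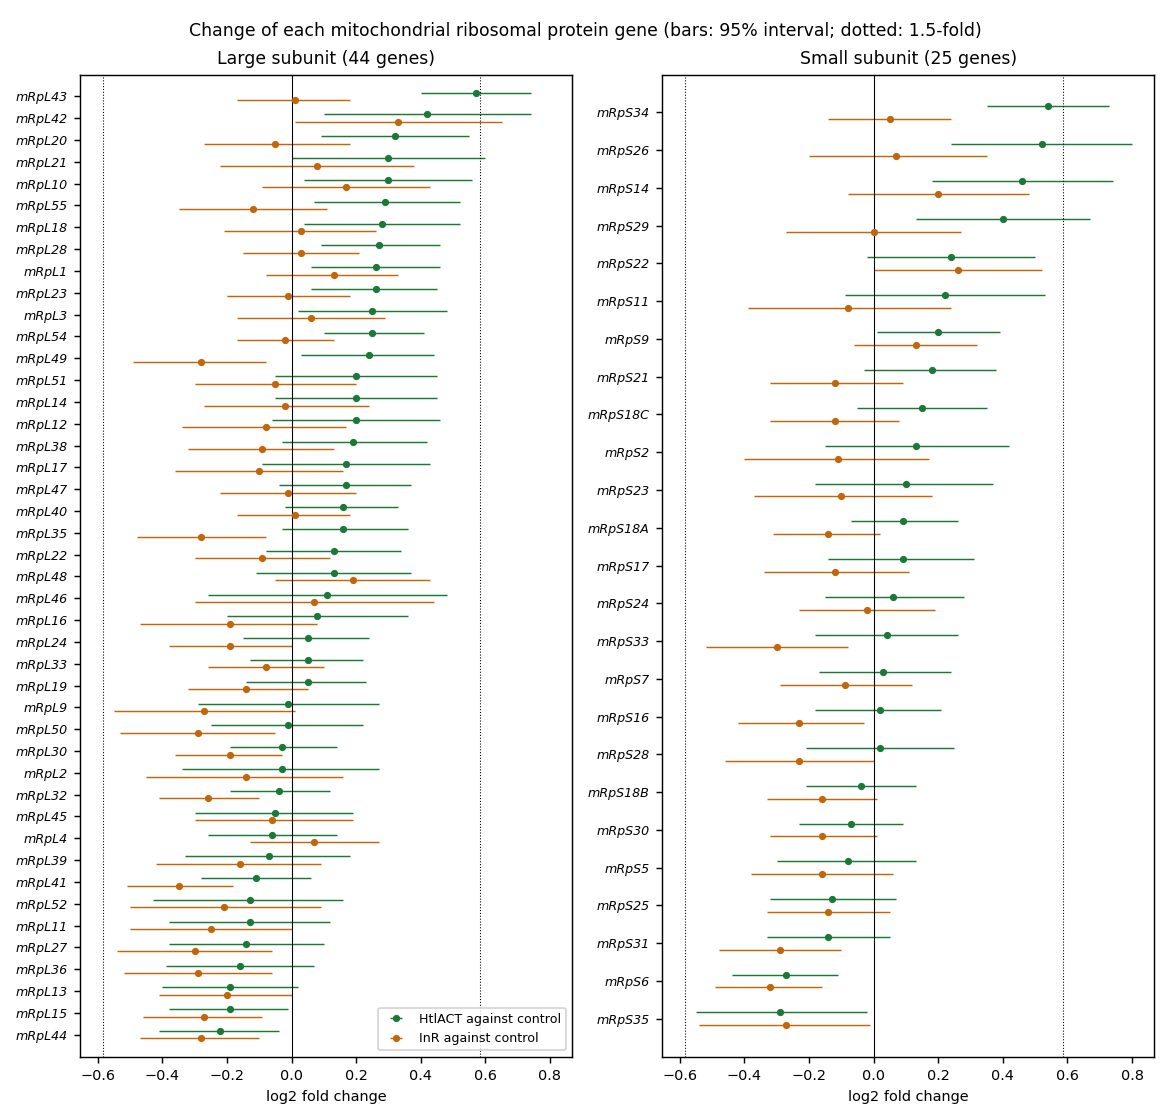
Log2 fold change of each of the 69 genes in HtlACT (green) and InR (orange) against control, large subunit left and small subunit right, ordered by the HtlACT change. Bars are 95% confidence intervals from limma (3 arrays a group), and dotted lines mark 1.5-fold, which no point passed. Changes ran from -0.29 to 0.57 in HtlACT and from -0.35 to 0.33 in InR.

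In HtlACT tissue, expression of 14 of the 69 genes was increased and expression of 2 was decreased. The 14 were *mRpL1*, *mRpL18*, *mRpL20*, *mRpL23*, *mRpL28*, *mRpL42*, *mRpL43*, *mRpL49*, *mRpL54*, *mRpL55*, *mRpS14*, *mRpS26*, *mRpS29* and *mRpS34*, and the 2 were *mRpL44* and *mRpS6*. The 14 are 20.3% of the members, close to the 21.4% of all tested that were increased, so the share of increased genes is not a result about the members. The 2 decreased genes are 2.9%, beside 35.2% of all tested. All 3 HtlACT signals lay above all 3 control signals for 21 members and below them for 6, beside 24.1% and 39.7% of all tested. The change was above the median of all tested for 63 members. It was above 0 for 46, beside 3403 of all 8552 tested.

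*mRpL43* (CG5479), a large subunit protein with no bacterial counterpart, had the lowest adjusted p. Its signal was 1372, 1234 and 1311 in the HtlACT arrays, against 836.7, 900.2 and 903.4 in control. Every HtlACT array lay well above every control array, and the change was 1.48-fold (log2 0.57, SE 0.08, adjusted p = 0.000452). *mRpS34* (CG42648), a small subunit protein that is mutated in a human form of Leigh syndrome, had 1729, 1442 and 1678 in HtlACT and 1111, 1112 and 1107 in control. The control arrays were almost equal and all HtlACT arrays were higher (1.45-fold, log2 0.54, SE 0.08, adjusted p = 0.000909).

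*mRpS26* (CG7354), a further small subunit protein found only in mitochondria, gave 1104, 893.3 and 1031 in HtlACT and 625.9, 742.2 and 744.7 in control. HtlACT replicate 2 was the lowest of its group and still above every control array (log2 0.52, SE 0.12, adjusted p = 0.007). *mRpS14* (CG32531), whose bacterial counterpart sits in the head of the small subunit, read 2110, 1489 and 1786 in HtlACT and 1312, 1306 and 1257 in control. The groups did not overlap, and the HtlACT arrays were spread widely (mean 1795 ± 311 SD, n = 3, log2 0.46, SE 0.12, adjusted p = 0.013). *mRpL54* (CG9353) had 820.7, 734.5 and 791.3 in HtlACT against 649.6, 646.1 and 669.1, a smaller change on a tight control group (log2 0.25, SE 0.07, adjusted p = 0.0118).

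The remaining 9 increased genes had log2 fold changes between 0.24 (*mRpL49*) and 0.42 (*mRpL42*). *mRpS29*, the fly counterpart of the GTP-binding protein DAP3, had 893.9, 886.9 and 940.2 in HtlACT and 566.8, 780.1 and 734.6 in control (log2 0.40, adjusted p = 0.0191). *mRpL42* had 1335, 1200 and 1354 against 762.9, 1069 and 1104, where control replicate 1 lay far below the others (adjusted p = 0.0309). *mRpL20*, whose bacterial counterpart takes part in the assembly of the large subunit, rose from 1331, 1473 and 1331 to 1784, 1607 and 1772 (log2 0.32, adjusted p = 0.0232). In none of these 3 did the groups overlap.

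Of the 2 decreased genes, *mRpS6* (CG15016), whose bacterial counterpart lies on the platform of the small subunit beside that of the S18 proteins, had 810.3, 793 and 736.5 in control and 649.1, 607.5 and 678.6 in HtlACT. All HtlACT arrays were lower (log2 -0.27, SE 0.07, adjusted p = 0.0118). *mRpL44* (CG2109), a protein with a ribonuclease III fold near the peptide exit tunnel, had 1978, 2105 and 2209 in control and 1762, 1740 and 1888 in HtlACT (log2 -0.22, SE 0.08, adjusted p = 0.0428). These groups did not overlap either.

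*mRpL43*, *mRpS34* and *mRpS26* kept their HtlACT calls under each of 21 alternative analyses. The count of 14 fell to 5 without the 3 arrays high in fat body genes (*mRpL20*, *mRpL43*, *mRpS26*, *mRpS29* and *mRpS34*) and that of 2 to 0 in the limma fit. The count of 14 became 7 without control replicate 1, 9 without control replicate 2, 6 without HtlACT replicate 1 and 7 without HtlACT replicate 3. *mRpL44* lost its call without control replicate 2 or 3, without HtlACT replicate 1 or 2 or without InR replicate 2 (log2 -0.22 to -0.18), and *mRpL44* and *mRpS6* both lost it after median centring (-0.05 and -0.10).

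**Figure D2:**
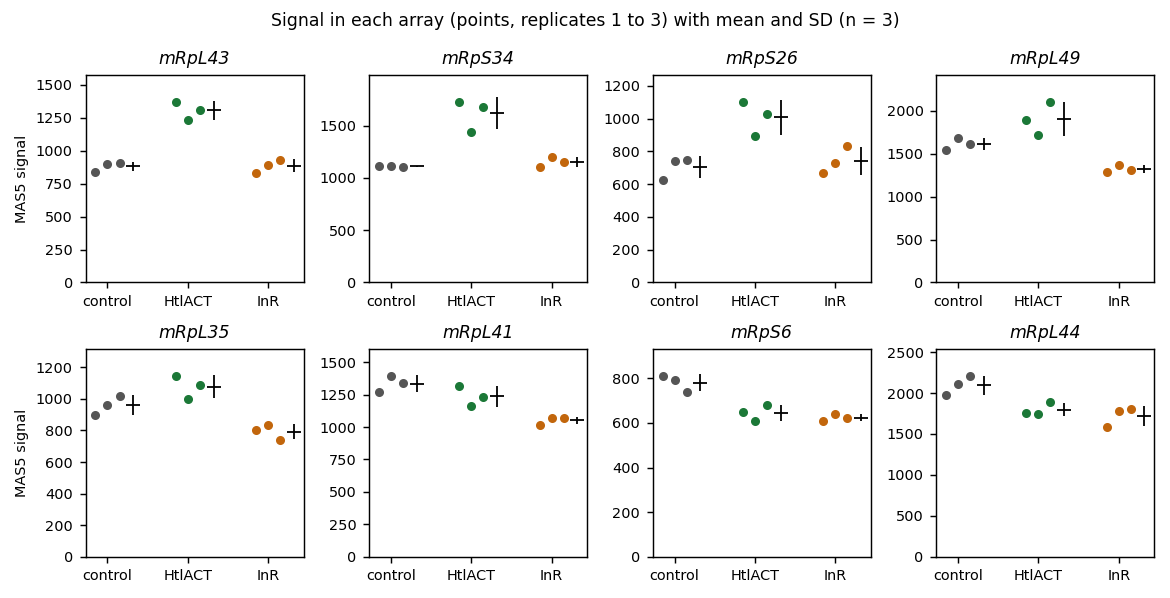
MAS5 signal of 8 genes in each array (points, replicates 1 to 3 from left to right in each group), with the mean and SD (n = 3) beside them. Each panel has its own signal axis from 0. *mRpL43*, *mRpS34* and *mRpS26* are highest in HtlACT, *mRpL41* and *mRpL35* are lowest in InR, and *mRpS6* and *mRpL44* are lower in both genotypes than in control. In *mRpL49* the InR arrays (1281 to 1373) lie below and the HtlACT arrays (1712 to 2106) above the control arrays (1540 to 1682).

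In InR tissue, expression of 9 of the 69 genes was decreased and none was increased. The 9 were *mRpL15*, *mRpL32*, *mRpL35*, *mRpL41*, *mRpL44*, *mRpL49*, *mRpS6*, *mRpS31* and *mRpS33*. They are 13% of the members, beside 21.5% of all tested that were decreased. The 0 increased stand beside 15.3% of all tested in the limma fit. At an unadjusted p of 0.05, 2 members were higher (*mRpL42*, log2 0.33, and *mRpS22*, log2 0.26, both named after their values were seen), beside 18.5% of all tested, and SAM called 0. All 3 InR signals lay below all 3 control signals for 29 members and above them for 4, beside 32.1% and 20.5% of all tested. Of the 69 changes, 32 were above the median of all tested and 18 were above 0, beside 3422 above 0 of all 8552 tested.

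*mRpL41* (CG12954), a large subunit protein found only in mitochondria, had the lowest adjusted p in this comparison. It had 1018, 1067 and 1068 in the InR arrays and 1270, 1394 and 1343 in control. The groups were well apart, and the change was 0.79-fold (log2 -0.35, SE 0.07, adjusted p = 0.0088). *mRpS6* had 607.1, 639.8 and 623.4 in InR, again below every control array (log2 -0.32, SE 0.07, adjusted p = 0.0105). *mRpL32* (CG12220), which in yeast and mouse is trimmed by the m-AAA protease before it enters the ribosome, had 964.2, 1062 and 1022 in InR and 1199, 1219 and 1219 in control (log2 -0.26, SE 0.07, adjusted p = 0.021).

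*mRpL44* had 1586, 1775 and 1807 in InR, lower than in every control array (log2 -0.28, SE 0.08, adjusted p = 0.0257). *mRpS31* (CG5904), a protein of the small subunit head, had 995.2, 1161 and 1136 in InR and 1308, 1342 and 1363 in control, and again no array overlapped (log2 -0.29, SE 0.08, adjusted p = 0.0268). The other 4 had log2 fold changes of -0.27 (*mRpL15*), -0.28 (*mRpL35*), -0.28 (*mRpL49*) and -0.30 (*mRpS33*), with adjusted p between 0.0313 and 0.043. InR replicate 1 was the lowest InR array in each of the 5 genes given with all their values.

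Arrays of control and InR with the same replicate number deviated together over all tested genes. With the replicate number as a block in the fit, 5 members were decreased in place of 9, and *mRpL35* and *mRpL49* were among those lost. The count of 9 fell to 0 in the limma fit without the 3 arrays high in fat body genes, where *mRpL41* was at -0.36 and *mRpS6* at -0.35. It fell to 3 without control replicate 2, 2 without control replicate 3, 2 without InR replicate 1 and 5 without InR replicate 2. Without control replicate 3, *mRpS22* was increased. *mRpL41* and *mRpS6* stayed past the threshold when any single array was left out. *mRpL32*, *mRpL44* and *mRpS31* did not, each with a log2 fold change between -0.31 and -0.22 in those fits, and lost their calls without control replicate 2, control replicate 3 or InR replicate 1 (*mRpL44* also without InR replicate 2 and *mRpS31* also without control replicate 1).

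The comparisons of HtlACT and InR with control use the same control arrays, so that they are not independent. Their members are therefore given side by side only. *mRpS6* and *mRpL44* were decreased in both. *mRpL49* was increased in HtlACT (0.24) and decreased in InR (-0.28). Whether the effect of a transgene on a gene differed between the genotypes was tested by comparing HtlACT with InR directly.

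In the direct comparison, expression of 13 of the 69 genes was higher in HtlACT than in InR tissue and none was lower. The 13 were *mRpL20*, *mRpL32*, *mRpL35*, *mRpL43*, *mRpL49*, *mRpL54*, *mRpL55*, *mRpS18A*, *mRpS21*, *mRpS26*, *mRpS29*, *mRpS33* and *mRpS34*. They are 18.8% of the members, beside 10.8% of all tested that were higher in HtlACT. The 0 lower members stand beside 14.1% of all tested in the limma fit. No member was lower at an unadjusted p of 0.05 either, beside 23.2% of all tested, and SAM called 0. All 3 HtlACT signals lay above all 3 InR signals for 31 members (44.9%), beside 16.8% of all tested, and the reverse order was found for 0, beside 25.0%. The change was above the median of all tested for 68 of the 69. It was above 0 for 65, beside 3349 of all 8552 tested. The limma fit gave a like pattern for 56 nuclear genes of the respiratory chain and ATP synthase. Of these, 15 were higher (26.8%), 0 were lower and 56 had a change above that median. The pattern was thus not particular to the members.

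*mRpL43* led here too. Its InR signals of 830.7, 893.3 and 928.5 spanned the control values, and all HtlACT arrays were higher (log2 0.56, SE 0.08, adjusted p = 0.0017). *mRpL49* (CG4647), a protein of the large subunit found only in mitochondria, had 1889, 1712 and 2106 in HtlACT, 1540, 1682 and 1611 in control and 1281, 1373 and 1315 in InR. The 3 groups did not overlap, and the direct difference was larger than either change against control (log2 0.52, SE 0.09, adjusted p = 0.00475). *mRpS34* had 1105, 1199 and 1156 in InR, near its control values (log2 0.48 between the genotypes, SE 0.08, adjusted p = 0.00492).

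*mRpL35* (CG13410), which has a counterpart in bacteria, had 1145, 1000 and 1087 in HtlACT, 899.5, 962.7 and 1021 in control and 804.1, 835.6 and 737.9 in InR. HtlACT and control arrays overlapped, whereas InR lay below both (log2 0.44 between the genotypes, SE 0.09, adjusted p = 0.00835). *mRpL55* (CG14283) had 1306, 1128 and 1335 in HtlACT, 917.5, 1035 and 1122 in control and 909.6, 935.5 and 978.4 in InR. HtlACT was above the other groups, by the least in replicate 2 (log2 0.41, SE 0.10, adjusted p = 0.0199).

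*mRpL43*, *mRpS34* and *mRpL49* kept this call in each alternative analysis but that without the 3 arrays high in fat body genes, where the count of 13 fell to 0 in the limma fit and these genes were at 0.65, 0.54 and 0.57. The count fell to 4 without HtlACT replicate 1, HtlACT replicate 3, InR replicate 1 or InR replicate 2, and in the same 4 fits *mRpL55* lost its call (log2 0.37 to 0.41). For *mRpL49* against control, the call in HtlACT was lost when any single array other than HtlACT replicate 2 was left out (log2 0.16 to 0.27), and the call in InR when any single control or InR array was left out (-0.32 to -0.25).

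*mRpL41* and *mRpS31* were decreased in InR, but their differences between the genotypes were 0.23 (95% confidence interval 0.06 to 0.40, adjusted p = 0.0517) and 0.15 (-0.04 to 0.34, adjusted p = 0.226). *mRpS14* was increased in HtlACT and differed from InR by 0.26 (-0.02 to 0.54, adjusted p = 0.16). For *mRpS6* and *mRpL44* the differences between the genotypes were 0.05 (-0.12 to 0.21) and 0.06 (-0.12 to 0.25). These 5 genes were thus not shown to respond differently to the 2 transgenes in the main analysis. *mRpL41* passed the threshold under 4 of the 21 alternatives and *mRpS14* under 2, whereas *mRpS31*, *mRpS6* and *mRpL44* passed it under none.

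The structural groups of the ribosome overlapped widely. The large subunit had medians of 0.13 in HtlACT and -0.09 in InR against control, and 0.20 between the genotypes. The small subunit had 0.09, -0.12 and 0.20. In HtlACT 10 of 44 large subunit genes and 4 of 25 small subunit genes were increased, or 22.7% and 16%, near the 21.4% of all tested. Genes classed by number as having a bacterial counterpart had a median HtlACT change of 0.09 (6 of 40 increased, 15%). Those classed by number as mitochondrial alone had 0.11 (8 of 29 increased, 27.6%). The subunits and the 2 classes were not tested against each other.

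Members were assigned to structural sites by lists that need not be complete, so a range covers the listed genes only. The central protuberance is a knob on the large subunit that faces the small one. The 5 proteins listed for it (*mRpL18*, *mRpL38*, *mRpL40*, *mRpL46* and *mRpL48*) had HtlACT changes from 0.11 to 0.28. Of these changes, that of *mRpL18* passed the test. The 7 proteins listed around the peptide exit tunnel ranged from -0.22 to 0.26 and included an increased gene, *mRpL23*, and a decreased one, *mRpL44*. *mRpL23* rose from 1285, 1317 and 1254 to 1663, 1399 and 1551 (log2 0.26, adjusted p = 0.0309). The stalk that recruits translation factors was represented by *mRpL10*, *mRpL11* and *mRpL12*, with 0.30, -0.13 and 0.20 in HtlACT and no call in the main analysis. *mRpL10* missed the threshold narrowly (adjusted p = 0.0507) and passed it under 8 of the 21 alternatives. The 4 genes around the peptidyl transferase centre, where peptide bonds form, ranged from -0.14 to 0.25 with no call in the main analysis, and *mRpL3* (0.25, adjusted p = 0.0634) passed under 4. In the head of the small subunit the range over 7 genes was -0.29 to 0.46, with *mRpS14* and *mRpS29* increased in HtlACT and *mRpS31* and *mRpS33* decreased in InR.

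*mRpS18A*, *mRpS18B* and *mRpS18C* are paralogs, all related to bacterial S18, and in mammals the first sits in the large subunit. *mRpS18A* had means of 1549 ± 57.5 in control, 1650 ± 49.8 in HtlACT and 1405 ± 87.5 in InR (SD, n = 3). It was higher in HtlACT than in InR (log2 0.23, adjusted p = 0.0472), a call lost under 17 of 21 alternatives, among them every fit without 1 array. *mRpS18B* had 1543 ± 83.8, 1503 ± 66.6 and 1379 ± 70.4, and *mRpS18C* had 921.1 ± 31.3, 1023 ± 87.4 and 846.3 ± 56.5. Their differences between the genotypes were 0.12 (adjusted p = 0.257) and 0.27 (adjusted p = 0.0533). Neither they nor *mRpS18A* passed the test against control.

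Mean control signals of the members ran from 577.6 ± 34 for *mRpL1* to 3560 ± 74.5 for *mRpL30* (SD, n = 3), which says nothing of their order because the probe sets differ. *mRpL30* had 3054, 3003 and 3296 in InR and 3485, 3560 and 3634 in control. The groups did not overlap, and the change was -0.19 (95% confidence interval -0.36 to -0.03, adjusted p = 0.0681), past the threshold under 4 of the alternatives. *mRpL47* and *mRpS11* had a second probe set. For *mRpL47* it gave 0.13 in HtlACT and -0.01 in InR, beside 0.17 and -0.01 for the brighter one. For *mRpS11* it gave 0.06 in InR, beside -0.08 (adjusted p = 0.696), so that the direction was unsettled.

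The members moved together from array to array. Relative to the control mean, their median log2 signal was -0.08, 0.03 and 0.07 in control replicates 1 to 3, 0.15, 0.00 and 0.18 in HtlACT and -0.18, -0.10 and -0.06 in InR. HtlACT replicate 2 thus stood with the control arrays on this scale. Less the median of all tested in the same array, it was at 0.15, between control (-0.08, 0.03 and 0.06) and the other HtlACT arrays (0.27 and 0.32). HtlACT replicate 2 was the lowest of the HtlACT arrays in 61 of the 69 genes. Control replicate 1 was the lowest control in 54 and InR replicate 1 was the lowest InR array in 53. The share of all tested with the same lowest array is not given. Medians of the respiratory chain and ATP synthase group had a like order, with -0.07, 0.02 and 0.06 in control and 0.29, 0.09 and 0.29 in HtlACT. Those of the cytoplasmic ribosomal protein genes were 0.13, -0.06 and 0.13 in HtlACT. A low HtlACT replicate 2 was thus not particular to the members. The median over all tested stayed within -0.15 to -0.12 in HtlACT and -0.09 to -0.08 in InR. Because the members of an array share these shifts, 69 genes are not 69 independent measurements, and 3 arrays a group limit the precision.

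**Figure D3:**
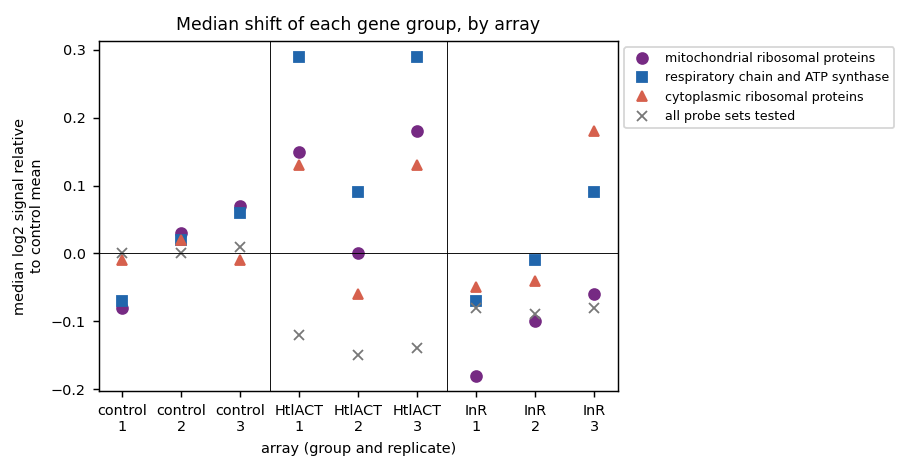
Median log2 signal of each gene group in each array, relative to the control mean of each gene. Circles are the 69 mitochondrial ribosomal protein genes, squares 56 genes of the respiratory chain and ATP synthase, triangles 35 cytoplasmic ribosomal protein genes and crosses all 8552 tested. HtlACT replicates 1 and 3 lie highest for the circles (0.15 and 0.18), and HtlACT replicate 2 lies at 0.00.

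The median of all tested depends on how arrays are scaled. Centring each array on its median moved it from -0.15 to 0.02 in HtlACT, from -0.09 to -0.20 in InR and from -0.08 to 0.20 between the genotypes. Relative to that median, the members were at 0.25 in HtlACT, -0.02 in InR and 0.28 between the genotypes. Over all alternatives these differences ranged from 0.19 to 0.29, from -0.09 to 0.02 and from 0.23 to 0.36. The median of the members themselves stayed above 0 in HtlACT, below 0 in InR and above 0 between the genotypes under every scaling.

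Genes that work with the mitochondrial ribosome were compared by counts and medians. *tko* and *bonsai*, which encode mitochondrial ribosomal proteins under older symbols, had no call, with HtlACT changes of 0.02 and -0.08 and InR changes of -0.01 and -0.11. Of 10 translation factors, 2 were increased in HtlACT (20%, near the 21.4% of all tested, median 0.06). They were *mRRF1*, a ribosome recycling factor (461.5 ± 32.8 in control, 655.7 ± 50.9 in HtlACT, log2 0.51, adjusted p = 0.0021), and *mEFTu2*, an elongation factor Tu (log2 0.44, adjusted p = 0.0022). *mEFTu2* was also increased in InR (log2 0.39, adjusted p = 0.00843), where *mEFTs*, the factor that recharges elongation factor Tu, was decreased (log2 -0.27, adjusted p = 0.0162).

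The 15 mitochondrial aminoacyl-tRNA synthetases, which load the tRNAs, had a median of -0.14 in HtlACT and -0.15 in InR. In HtlACT 1 was increased (*TyrRS-m*, log2 0.35, adjusted p = 0.036) and 4 were decreased, among them *AspRS-m* (1155 ± 86.7 to 788.4 ± 54.5, log2 -0.55, adjusted p = 0.00271). In InR 3 were decreased and 0 increased in the limma fit. Of all tested, 35.2% were decreased in HtlACT and 21.5% in InR, with medians of -0.15 and -0.09. The share of decreased synthetases was thus not above that of all tested in either genotype. A list of 15 genes drawn up for the upkeep of mitochondrial DNA and RNA also held *Lon*, *ClpP* and *ClpX*, genes of matrix proteases. In HtlACT 1 of the 15, *ClpX*, was increased and 3 were decreased, beside 21.4% and 35.2% of all tested. *ClpX*, the ATPase of the matrix ClpXP protease, passed 1.5-fold (2773 ± 290.0 to 5554 ± 1310, log2 0.98, adjusted p = 0.00135), and *PolrMT*, the mitochondrial RNA polymerase, was among the decreased (log2 -0.32, adjusted p = 0.0208).

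Of 11 import and chaperone genes, 4 were increased (36.4%) and 0 decreased in HtlACT (median 0.10), beside 21.4% and 35.2% of all tested. *Tom70*, an import receptor of the outer membrane, rose in HtlACT (log2 0.53, adjusted p = 0.000872) and InR (0.41, adjusted p = 0.00633). Of 56 nuclear genes of the respiratory chain and ATP synthase, whose products assemble with the proteins that mitochondrial ribosomes make, 23 were increased and 0 decreased in HtlACT (median 0.21), 3 of them by 1.5-fold. The 23 are 41.1%, beside the same 21.4% of all tested. In InR 0 were increased and 1 was decreased (median -0.01), beside 15.3% and 21.5% of all tested. Of 35 genes of the cytoplasmic ribosome, 0 were increased in either genotype, 2 were decreased in HtlACT and 1 in InR, with medians of 0.07 and 0.04. Both decreased in HtlACT, *RpS5b* (log2 -0.80) and *RpS19b* (log2 -0.61), are second copies of ribosomal protein genes.

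**Figure D4:**
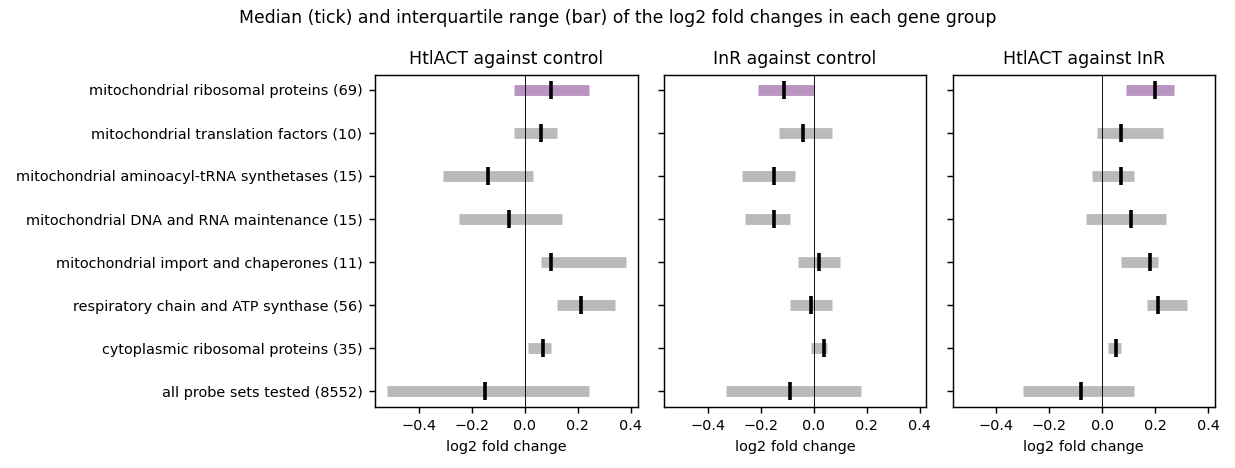
Median (tick) and interquartile range (bar) of the log2 fold changes of each gene group in the 3 comparisons, with the number of genes tested in brackets and the same axis in each panel. The 69 mitochondrial ribosomal protein genes (purple) lie at 0.10, -0.11 and 0.20, and all 8552 tested at -0.15, -0.09 and -0.08. The respiratory chain group lies at 0.21, -0.01 and 0.21.

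Marker genes of cell types moved with both genotypes. Summed signals of 9 glial markers were 27250 to 31220 in control, 72100 to 83920 in HtlACT and 52150 to 52490 in InR arrays. Those of 8 neuronal markers were 24840 to 26100, 13230 to 16510 and 17860 to 20200, and those of 9 markers of neuroblasts and dividing cells were 20140 to 22230, 15390 to 16510 and 15040 to 16270. No group overlapped control in these 3 sums. Their part in the changes of the mitochondrial ribosomal protein genes was not tested. Tracheal markers were also higher in InR (2232 to 2945, against 857.8 to 1704 in control). Hemocyte markers summed to 854.1 to 1112 in control, 1082 to 1549 in HtlACT and 1545 to 1867 in InR arrays, so that InR lay above control. Muscle markers summed to 209.2 to 456.3, 100.1 to 296.7 and 171.8 to 354.2, with all groups overlapping. The part of these tissues in the changes was not tested either.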

How the data were processed

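RNA of the larval CNS was hybridised to 9 Affymetrix *Drosophila* Genome 2.0 arrays, 3 for each genotype. The authors summarised each of 18952 probe sets as a MAS5 signal intensity in Affymetrix Expression Console, and the deposited intensity values have the same 2% trimmed mean of 500.0 in every array. The aligner and genome build do not apply to these arrays. A table of detection calls or p-values was not analysed here.

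Signals were taken to log2 with no further scaling. Control probe sets (183) were left out. GEO's platform annotation, updated through a RefSeq gene table, gave 1 gene for 13646 probe sets, several for 402 and none for 4721. For a gene with several probe sets the brightest was kept, which left 17105 genes or unnamed probe sets. The 8552 brighter ones by mean log2 signal (mean signal at least 35.2) were tested in limma 3.58.1 under R 4.3.3, with 1 mean per genotype and 6 residual degrees of freedom plus 2.09 from the prior. P-values were adjusted over all 8552 by Benjamini-Hochberg. The first call rule was 1.5-fold at an adjusted p of 0.05, and the second was the adjusted p alone. Scripts were checked on simulated data. Counts came from pandas 2.3.3 and numpy 2.4.6, and figures from matplotlib 3.10.9, all under Python 3.11.15.

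The members, gene lists, rules for naming genes and tests were chosen with earlier results of these data known. Members named with values were the 5 with the lowest adjusted p in each direction and comparison, the highest and the lowest control signal (the rule's 5 of each are not listed, since probe sets cannot be ranked), members with probe sets that disagreed, and the *mRpS18* paralogs; other called members were listed or given as further examples. *mRpL34* and *mRpL37* were not analysed here, and *mRpS10* and *mRpL53* are not among the 69 because their probe sets also name another gene.

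Deviations from group means of control and InR arrays with the same replicate number correlated over all tested (0.499, 0.371 and 0.23), each over 0.1. The same correlations were -0.0402, -0.0557 and 0.198 for HtlACT and control, and -0.0371, -0.167 and 0.378 for HtlACT and InR. Replicate numbers may thus pair the control and InR arrays, although no label says so. The main fit left such a pairing out, and only the alternative with the replicate block used it.

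Alternatives were quantile normalisation, median centring, no filter, the brightest 5701 alone, a pseudocount of 7.83, the 6 arrays of a comparison, the replicate block, limma's trend and robust options, the mean of a gene's probe sets, a reimplementation of SAM with all 20 permutations, no fold limit, and leaving out arrays.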

Additional observations from a re-analysis of the deposited data

How the results depend on the processing

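With 3 arrays a group, single arrays decided many calls. The medians of the 69 genes kept their direction under every alternative. They moved beyond the spread between arrays only after median centring, to 0.27 in HtlACT against control, -0.22 in InR against control and 0.48 in HtlACT against InR. Leaving out 1 array gave medians of 0.06 to 0.14, -0.15 to -0.07 and 0.15 to 0.25. Of 25 calls without a fold limit on named members, 3 (*mRpL43*, *mRpS34* and *mRpS26* in HtlACT against control) held under all 21 alternatives, and of 26 results not past the threshold 5 passed it under some alternative. The cause of these changes was not tested.

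At 1.5-fold, members higher in HtlACT than in control numbered 0, but 3 after quantile normalisation, 5 after median centring, 1 without control replicate 2 and InR replicate 2, 1 without the 3 arrays high in fat body genes, 0 to 4 without single arrays and 14 with no fold limit. Members lower in HtlACT numbered 2, and those lower in InR 9, with no fold limit. Members higher in HtlACT than in InR numbered 0, but 1 after quantile normalisation, 9 after median centring, 0 to 2 without single arrays and 13 with no fold limit.

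With no fold limit, the 14 higher in HtlACT than in control became 22 after quantile normalisation, 3 with no filter, 8 with the 6 arrays of the comparison, 6 by SAM, 5 without control replicate 2 and InR replicate 2, 5 without the 3 arrays, and 6 to 15 without single arrays. The 2 lower became 1 after quantile normalisation, 0 after centring, 0 with no filter, 1 with 6 arrays, 5 by SAM, 0 without either set of arrays and 1 to 3 without single arrays. The 9 lower in InR became 5 after quantile normalisation, 2 after centring, 0 with no filter, 14 among the brightest 5701, 17 by SAM, 0 without either set of arrays and 2 to 10 without single arrays, and the 0 higher became 0 to 1 without single arrays. The 13 higher in HtlACT than in InR became 28 after centring, 3 with no filter, 6 with 6 arrays, 7 by SAM, 4 without control replicate 2 and InR replicate 2, 0 without the 3 arrays and 4 to 18 without single arrays. The limma fits gave each 0 named here. Shares of all tested under these alternatives are not given. The changed counts, with or without the fold limit, therefore do not show whether the members changed more than the rest. Centring also moved the median of all tested between the genotypes from -0.08 to 0.20.

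With the replicate number as a block, 14 members were higher and 3 lower in HtlACT than in control, 5 were lower in InR in place of 9, and 11 were higher in HtlACT than in InR. The 14 higher in HtlACT were not the same genes: *mRpL1*, *mRpL23* and *mRpL49* lost their calls under the block, and *mRpL3*, *mRpL10* and *mRpS9* gained one. Same-numbered HtlACT arrays correlated with the others above 0.1 in replicate 3 alone (0.198 with control, 0.378 with InR), so the block was not taken as a pairing there.

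Among the 17 named members with a value under each alternative, the sign turned only in changes that passed no test in the main analysis. In HtlACT against control, *mRpL32* turned to 0.04 after quantile normalisation and 0.14 after centring, and ranged from -0.06 to 0.005 without single arrays. *mRpS18B* turned to 0.0009 and 0.14 in the same settings and ranged from -0.08 to 0.0003, and *mRpL41* and *mRpS31* turned to 0.06 and 0.03 after centring. In InR against control, centring turned *mRpL43* to -0.10, *mRpS26* to -0.03 and *mRpS34* to -0.05, and leaving out the 3 arrays turned them to -0.07, -0.04 and -0.01. Without single arrays these genes ranged from -0.03 to 0.05, from -0.01 to 0.15 and from 0.03 to 0.08. Quantile normalisation turned *mRpL54* to 0.03, and leaving out control replicate 2 and InR replicate 2 turned *mRpS11* to 0.01, with -0.18 to -0.01 without single arrays.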

Other observations

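Of the probe sets that name a mitochondrial ribosomal protein gene together with another gene, 1 differed from most of the 69. The probe set for *mRpL53* and CG33155 had means of 3393 ± 261 in control, 2421 ± 110 in HtlACT and 2897 ± 123 in InR (SD, n = 3). It was lower in HtlACT than in control (log2 -0.49, adjusted p = 0.00121) and lower in HtlACT than in InR (-0.26, adjusted p = 0.0461), and had -0.23 in InR against control (adjusted p = 0.0553). None of the 69 genes read alone fell by as much in HtlACT, where the lowest was at -0.29. None passed the test as lower in HtlACT than in InR, where the lowest was at -0.13. The probe set cannot tell the transcripts of its 2 genes apart. The probe set for *mRpS10* and CG34316 had 1241 ± 46.8, 1209 ± 38.2 and 1104 ± 96.2, with changes of -0.04 (adjusted p = 0.703), -0.17 (adjusted p = 0.131) and 0.13 between the genotypes (adjusted p = 0.262).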
